A study of Mus musculus with 12 samples.

Results

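The Ier, Btg and Zfp36 genes are early-response genes, whose transcription is switched on soon after a cell is stimulated, and close relatives of them. They were examined here across all conditions of an RNA-seq experiment in MIN6 cells, a mouse beta-cell line. The 9 genes were chosen by symbol: Ier2, Ier3, Ier5 and Ier5l, Btg1 and Btg2, and Zfp36, Zfp36l1 and Zfp36l2. Each had 1 row among the 54022 genes of the count and FPKM tables. MIN6 cells received vehicle or trimethylamine N-oxide (TMAO), a gut microbe-derived metabolite, at 100 nM for 18 h and were then kept in low or high glucose. The 4 conditions were therefore vehicle in low glucose, TMAO in low glucose, vehicle in high glucose and TMAO in high glucose, with 3 biological replicates each and 1 library per replicate. The labels name no genetic change in any of them. MIN6 is a single line derived from an insulinoma of a transgenic mouse that expressed SV40 large T antigen in its beta cells, so the p-values below measure the spread between cultures of 1 line. The cells were fasted before the glucose step, and the time they then spent in low or high glucose before RNA was taken is not given in the sources used here.

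Immediate early genes need no new protein synthesis to be transcribed, and in beta cells glucose metabolism, calcium entry and the kinases downstream of it are known to induce many of them. IER proteins are linked to cell survival, growth and stress responses. BTG proteins bind the CCR4-NOT deadenylase, which removes poly(A) tails, and ZFP36 proteins bring the same deadenylase to mRNAs with AU-rich elements in the 3′ untranslated region.

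Coordinates are those of the count table, in GRCm38. The Ier genes are Ier2 (ENSMUSG00000053560, chr8:84661331-84662852, minus strand), Ier3 (ENSMUSG00000003541, chr17:35821684-35822923, plus), Ier5 (ENSMUSG00000056708, chr1:155096361-155099636, minus) and Ier5l (ENSMUSG00000089762, chr2:30471537-30474219, minus). The Btg genes are Btg1 (ENSMUSG00000036478, chr10:96617006-96622809, plus) and Btg2 (ENSMUSG00000020423, chr1:134075170-134079120, minus). The Zfp36 genes are Zfp36 (ENSMUSG00000044786, chr7:28376784-28380253, minus), Zfp36l1 (ENSMUSG00000021127, chr12:80107754-80113013, minus) and Zfp36l2 (ENSMUSG00000045817, chr17:84183931-84187947, minus). The genes were compact. Per GENCODE M21 (GRCm38), all 9 had at most 2 exons, and 3 of them, Ier2, Ier5 and Ier5l, had a single exon. Among 12756 tested genes with a protein-coding transcript, 7.79% had at most 2 exons and 3.02% had 1. The 9 genes spanned 1240 to 5804 bases from start to end, against a median of 22456 for those 12756 genes. The promoters of 7 genes were found in the RefSeq table for GRCm38.p6, and Ier2 and Zfp36l2 had no entry. The 250 bases before the RefSeq start are printed below for the 4 of these 7 genes whose mRNA rose in high glucose. That start is not always the gene start listed above. For Zfp36 it is position 28379228, which lies 1025 bases inside the listed gene, so the whole window is within that gene. For Ier3 it is position 35821713, and the last 29 bases of the window are within the listed gene. Capitals mark motifs searched on both strands: the cAMP response element (CRE) TGACGTCA, its half-site TGACG (which lies within the full element), the CArG box bound by serum response factor, and the TATA box TATAA. The windows are chr1:134079156-134079405 on the minus strand for Btg2, chr10:96616751-96617000 on the plus strand for Btg1, chr7:28379229-28379478 on the minus strand for Zfp36 and chr17:35821463-35821712 on the plus strand for Ier3.
Btg2: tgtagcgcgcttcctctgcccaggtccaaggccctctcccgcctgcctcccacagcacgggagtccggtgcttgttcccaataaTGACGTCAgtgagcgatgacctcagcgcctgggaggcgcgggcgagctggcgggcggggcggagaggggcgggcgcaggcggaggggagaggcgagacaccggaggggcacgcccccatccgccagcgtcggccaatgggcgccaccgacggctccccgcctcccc
Btg1: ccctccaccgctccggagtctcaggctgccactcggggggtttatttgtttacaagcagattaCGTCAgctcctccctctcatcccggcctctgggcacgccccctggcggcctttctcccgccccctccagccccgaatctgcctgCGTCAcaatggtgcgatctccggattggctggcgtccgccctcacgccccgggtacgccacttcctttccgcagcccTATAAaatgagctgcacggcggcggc
Zfp36: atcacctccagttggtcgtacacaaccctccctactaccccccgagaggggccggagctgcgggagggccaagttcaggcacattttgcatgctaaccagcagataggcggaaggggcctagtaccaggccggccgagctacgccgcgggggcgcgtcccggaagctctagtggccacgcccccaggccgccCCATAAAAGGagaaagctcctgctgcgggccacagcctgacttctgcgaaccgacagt
Ier3: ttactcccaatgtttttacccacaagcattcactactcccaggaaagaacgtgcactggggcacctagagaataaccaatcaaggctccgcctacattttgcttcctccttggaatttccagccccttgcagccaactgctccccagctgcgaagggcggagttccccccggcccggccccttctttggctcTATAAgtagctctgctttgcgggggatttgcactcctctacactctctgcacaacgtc

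The full CRE was present in 1 of the 7 promoters, that of Btg2, where it began at -166 from the RefSeq start, from which all positions here are counted. It was present in 1.55% of all 32851 promoters of the same length and in 2.62% of those of tested genes. The half-site was present in Btg2 and Btg1, against 17.8% of all promoters and 26.1% of those of tested genes. In Btg1 the half-sites began at -187 and -103, both on the opposite strand. The CArG box was present in Zfp36, beginning at -58 and thus inside the gene as the count table gives it, against 1.47% of all promoters and 1.28% of those of tested genes. A TATA box was present in Btg1, Ier3, Ier5 and Zfp36l1, against 22.8% and 12.5%. None of these letters was found in the Ier5l window. A match describes the sequence only, and factor binding was not measured.

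The AU-rich heptamer TATTTAT, the letters at the centre of ZFP36 binding sites, was present in the 3′ untranslated region of 5 of the 9 genes, compared with 29.9% of the 12756 coding genes tested. Ier3 had 4 copies in 613 bases, and Zfp36 had 3 copies in 774 bases. Zfp36l1 and Zfp36l2 each had 3 copies in longer regions of 1835 and 1822 bases. Btg2 had 1 copy in 2199 bases. Ier2, Ier5, Ier5l and Btg1 had 0 copies, although the region of Btg1 was 4166 bases long. One copy is shown for Ier3, Zfp36, Btg2 and Zfp36l2, as the mRNA sense, with the heptamer in capitals. The windows are chr17:35822486-35822504 (plus strand), chr7:28376956-28376974 (minus), chr1:134077254-134077272 (minus) and chr17:84184685-84184703 (minus), in that order, in GRCm38.
Ier3: aattaaTATTTATgtattt
Zfp36: cgacttTATTTATtgtatt
Btg2: aagagcTATTTATacatgt
Zfp36l2: atgtaaTATTTATttcatt

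The 12 libraries held 16793162 to 22340542 assigned counts, with a median of 18874667.5. All 9 genes passed the filter on low counts that left 16222 genes for testing, and the typical spread between replicates, as the biological coefficient of variation, was 5.34%. All 14 beta-cell markers averaged above 1 FPKM, a length-scaled level that can be compared between genes. Of 14 markers of other pancreatic, endothelial, immune or stromal cells, 5 had no count in any library (Krt19, Sox9, Ptprc, Adgre1 and Pdgfrb), and the glucagon gene Gcg was the main exception at a mean of 216 FPKM. The summed FPKM of the beta-cell markers was 42412 to 45973 with vehicle and 41449 to 47089 with TMAO in low glucose, and 46199 to 47791 and 45848 to 49000 in high glucose. The sum of the other markers was 204 to 219 and 201 to 214 in low glucose, and 226 to 230 and 224 to 229 in high glucose. With vehicle both sums were higher in every high-glucose library than in every low-glucose one. With TMAO this held for the other markers, a sum made up mostly of Gcg, while the beta-cell sums overlapped. The part of these differences in the results below was not tested. Of those 14 other markers 4 could be tested, and 0 were called in either glucose comparison by edgeR, DESeq2 or limma on log2(FPKM + 1). In edgeR 1 (vehicle) and 2 (TMAO) had an unadjusted p under 0.05, as had 2112 and 2385 of all 16222 tested genes.

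On the FPKM scale the mRNAs differed widely in level. Btg1 was the most abundant at a mean of 28.2 FPKM over the 12 libraries, above 86.6% of tested genes. Ier2 followed at 26.5, Zfp36l2 at 24.0 and Btg2 at 15.0. Ier3 and Ier5 were at 8.37 and 7.78, Zfp36 at 2.12 and Ier5l at 1.63. Zfp36l1 was close to the limit of detection, at 0.152 FPKM and 3 to 16 raw counts per library. Within the Zfp36 family, Zfp36l2 was therefore the main mRNA in these cells in every condition: its library values ran from 22.7 to 26.2 FPKM, those of Zfp36 from 1.41 to 2.81 and those of Zfp36l1 from 0.0538 to 0.286. Within the Btg pair, Btg1 exceeded Btg2 in every library, at 25.0 to 31.0 against 10.04 to 21.3 FPKM.

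**Figure D1:**
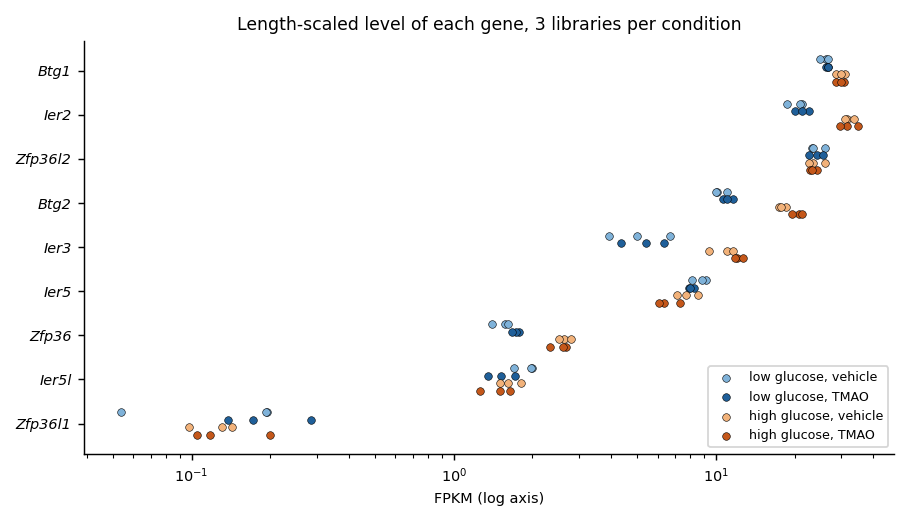
Level of each gene (FPKM, log axis) in the 12 libraries, coloured by condition; each point is 1 library and the genes are ordered by mean level. Btg1, Ier2, Zfp36l2 and Btg2 average 15.0 to 28.2 FPKM, and Zfp36l1 averages 0.152.

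High glucose was compared with low glucose in vehicle-treated cells to ask which of these genes respond to glucose. In this comparison 5 of the 9 genes rose and none fell: Ier2, Ier3, Btg1, Btg2 and Zfp36. The increases ran from 1.15-fold for Btg1 to 2.05-fold for Ier3. A gene was called where the p of edgeR's quasi-likelihood test, adjusted by Benjamini-Hochberg over all tested genes, was under 0.05. This held for 3.30% of the 16222 genes, and 1.99% were called higher. In the same 5 genes every high-glucose library exceeded every low-glucose library, which held in one direction or the other for 18.8% of all genes. In TMAO-treated cells the same comparison called 6 of the 9 genes. The same 5 genes rose, and Ier5 fell. Of all genes, 3.64% were called, 2.0% higher and 1.64% lower, and the groups of 18.4% did not overlap, as was so for these 6. The 2 comparisons use different libraries. Genes called higher in both made up 1.42% of those tested. In bulk RNA, fewer cells of a type and less RNA per cell cannot be told apart.

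**Figure D2:**
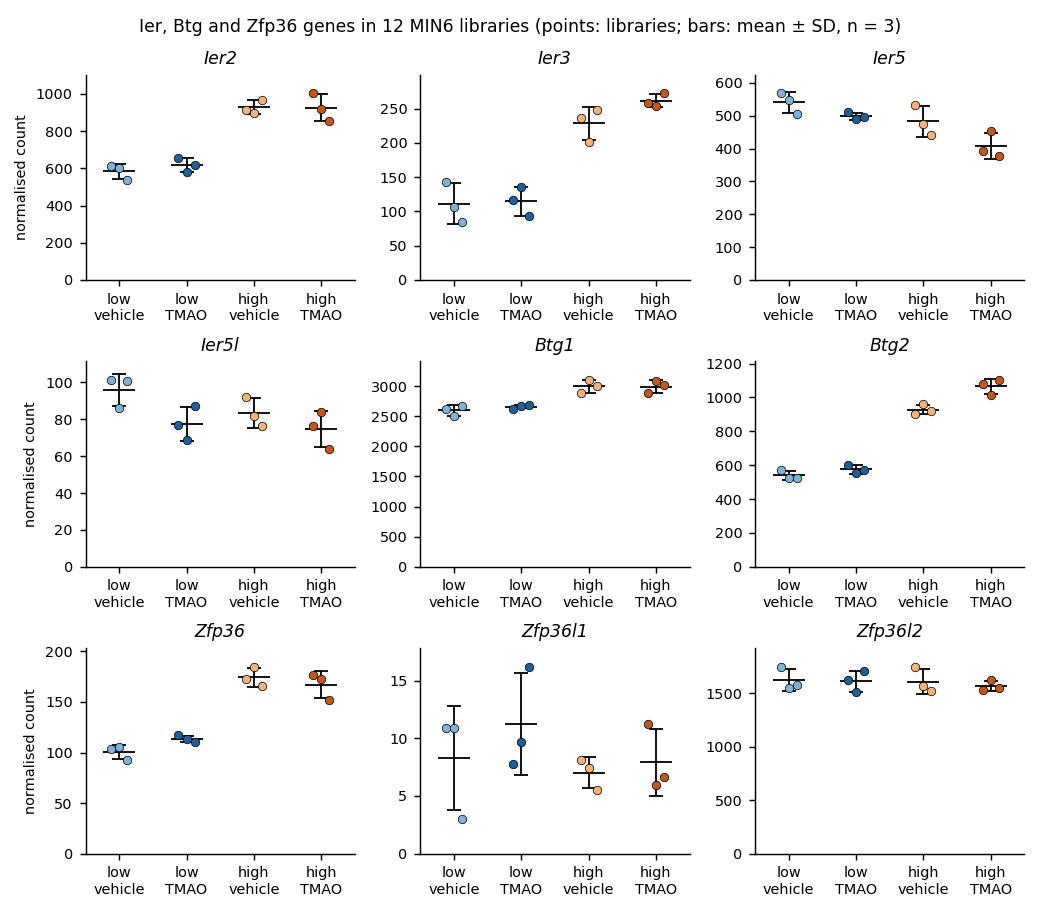
Normalised counts of each gene in the 12 libraries by condition; points are libraries, bars are the group mean ± SD (n = 3), and each panel has its own vertical axis from 0. Ier2, Ier3, Btg1, Btg2 and Zfp36 are higher in all high-glucose libraries than in all low-glucose libraries, and Ier5l, Zfp36l1 and Zfp36l2 overlap.

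Among the Ier genes, Ier3 and Ier2 rose. Ier3 encodes a stress-inducible protein linked to apoptosis and ERK signalling. Its normalised counts, scaled to a common library size, were 143, 107 and 84.2 in low glucose with vehicle and 237, 201 and 248 in high glucose with vehicle. With TMAO they were 116, 136 and 93.1 in low glucose and 258, 254 and 273 in high glucose. The low-glucose libraries differed the most among themselves, with coefficients of variation of 26.6% and 18.5%, but none reached the lowest high-glucose library. The log2 fold change for glucose was 1.03 ± 0.15 (SE, 3 against 3 libraries; adjusted p = 4.72e-05) with vehicle and 1.18 ± 0.14 (adjusted p = 4.15e-06) with TMAO, the greatest of the 9 genes in both. Ier2 encodes a nuclear protein induced by growth factors. Its normalised counts were 611, 602 and 538 in low glucose and 915, 898 and 970 in high glucose with vehicle. They were 656, 580 and 617 in low glucose and 1004, 917 and 856 in high glucose with TMAO. The increase was 0.67 ± 0.07 on the log2 scale with vehicle (adjusted p = 3.53e-08) and 0.58 ± 0.07 with TMAO (adjusted p = 5.28e-07).

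Ier5 encodes a nuclear protein that works with the phosphatase PP2A on the heat shock factor HSF1, and it did not move with Ier2 and Ier3. Its normalised counts were 569, 547 and 505 in low glucose and 534, 476 and 441 in high glucose with vehicle, with overlap. With TMAO they were 511, 489 and 496 in low glucose and 393, 452 and 376 in high glucose, without overlap. The log2 fold change with vehicle was -0.16 ± 0.08 (adjusted p = 0.389). With TMAO it was -0.28 ± 0.08 (adjusted p = 0.0407), a level that decreased by 17.9%. That call was lost with DESeq2 (adjusted p = 0.0666), with limma on FPKM (0.135 and 0.141) and when any 1 of the 6 libraries other than TMAO in high glucose replicate 2 was left out (0.0601 to 0.256). Ier5l, a paralogue of Ier5, had 64.0 to 101 normalised counts, and its groups overlapped in both glucose comparisons. Its log2 fold change was -0.20 (95% confidence interval -0.52 to 0.12) with vehicle and -0.04 (-0.37 to 0.29) with TMAO.

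Both Btg genes rose, by very different amounts. Btg2 normalised counts were 571, 526 and 522 in low glucose and 905, 959 and 919 in high glucose with vehicle. With TMAO they were 602, 551 and 574 in low glucose and 1080, 1015 and 1102 in high glucose. Replicates lay close together, with coefficients of variation of 3.06% to 5.04%, and the glucose groups were far apart. The log2 fold change was 0.78 ± 0.06 with vehicle (adjusted p = 1.39e-10) and 0.89 ± 0.06 with TMAO (adjusted p = 5.73e-12). Btg2 had the smallest p of the 9 genes in both comparisons, in rank 34 and rank 23 of all tested genes. Btg1, the more abundant of the pair, had normalised counts of 2616, 2497 and 2674 in low glucose and 2891, 3100 and 2994 in high glucose with vehicle. With TMAO they were 2627, 2670 and 2678 in low glucose and 2880, 3084 and 3013 in high glucose. The groups did not overlap, yet the log2 fold change was only 0.21 ± 0.05 with vehicle (adjusted p = 0.00605) and 0.17 ± 0.05 with TMAO (adjusted p = 0.0298).

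The calls on Btg1 were the least firm of the 5 increases. With vehicle, the adjusted p was 0.0943 without vehicle in low glucose replicate 2 and 0.0653 without vehicle in high glucose replicate 2. With TMAO, the call was lost when any library of the comparison other than TMAO in high glucose replicate 1 was left out (adjusted p from 0.05 to 0.176), when only the 6 libraries compared were fitted (0.0541) and with limma on FPKM (0.0634 and 0.0678). The log2 fold change stayed between 0.15 and 0.23 in all of these fits.

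Of the Zfp36 genes, Zfp36 itself rose and its paralogues gave no call. Zfp36, which encodes tristetraprolin, had normalised counts of 103, 106 and 92.4 in low glucose and 173, 185 and 166 in high glucose with vehicle. With TMAO they were 117, 113 and 110 in low glucose and 177, 172 and 152 in high glucose. The high-glucose libraries were above all low-glucose ones. The log2 fold change was 0.80 ± 0.12 with vehicle (adjusted p = 5.58e-05) and 0.56 ± 0.12 with TMAO (adjusted p = 0.00451). An antisense RNA, Gm44710, overlaps Zfp36 on the opposite strand and averaged 5.17 counts per library against 139 for Zfp36. Whether counting used strand is not given in the sources used here, so reads of these 2 genes may be shared. Zfp36l2 was flat, at 1511 to 1749 normalised counts over all libraries, with log2 fold changes of -0.01 (95% confidence interval -0.13 to 0.11) with vehicle and -0.04 (-0.16 to 0.08) with TMAO. For Zfp36l1, which overlaps the long non-coding RNA Gm26669, the depth limits what can be seen. Its 95% confidence interval ran from -1.27 to 0.80 with vehicle and from -1.48 to 0.45 with TMAO.

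**Figure D3:**
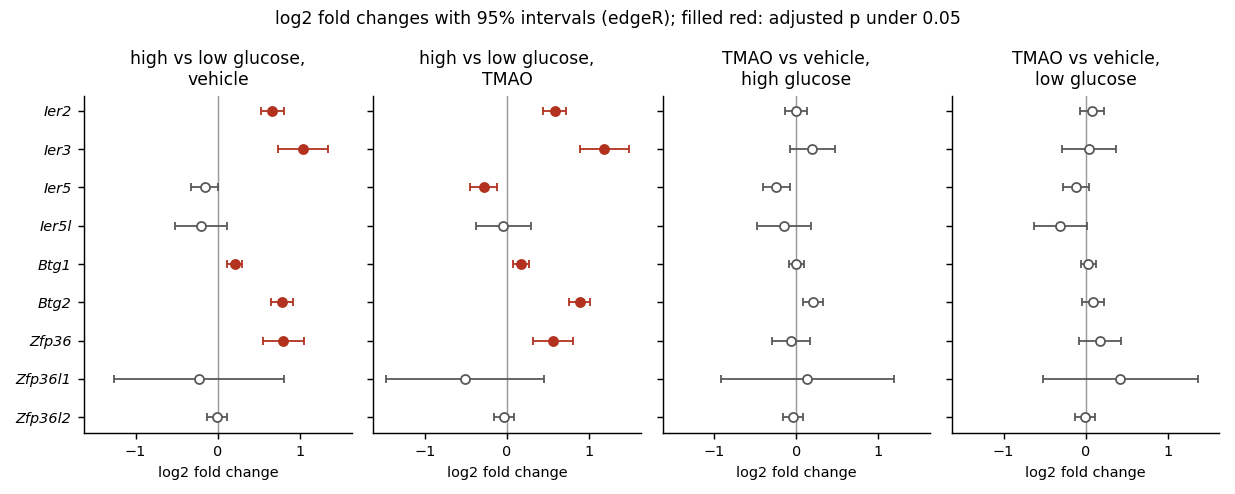
Log2 fold change of each gene in the 4 comparisons, 1 per panel; points are edgeR estimates, bars are 95% confidence intervals and filled red points have an adjusted p under 0.05. In the glucose comparisons 5 and 6 genes are filled, and none is filled for TMAO against vehicle.

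**Figure D4:**
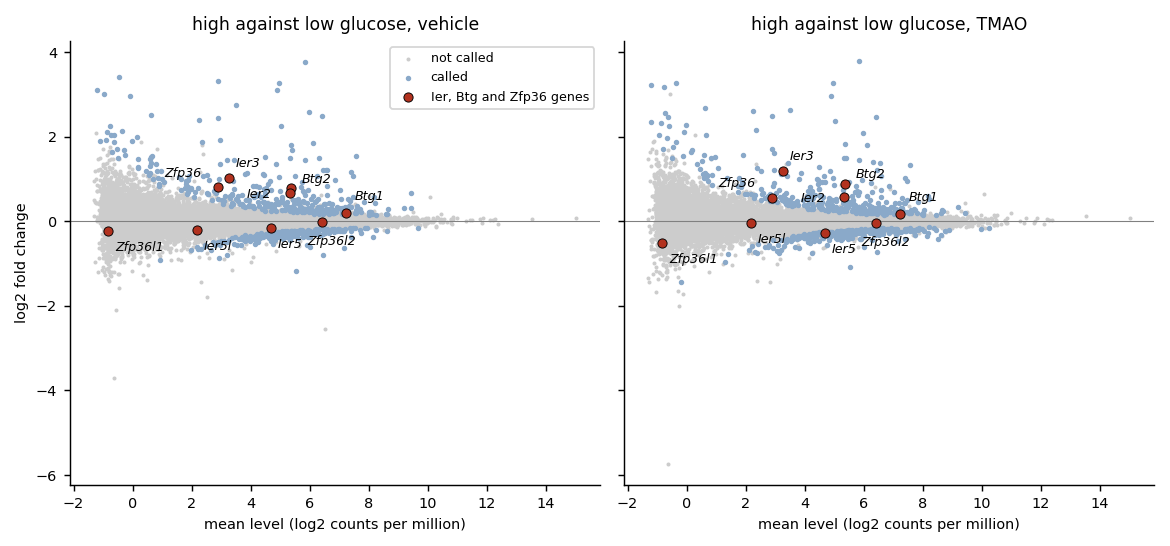
Log2 fold change of high against low glucose (vertical axis) by mean level (log2 CPM, counts scaled to library size) for the 16222 tested genes, with vehicle on the left and TMAO on the right. Called genes are blue and the 9 genes red; Ier3 is highest of them at 1.03 and 1.18, and Zfp36l1 lies at the low-count end.

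TMAO was compared with vehicle at each glucose level to ask whether the metabolite changed these genes by itself. None of the 9 genes was called in high glucose by edgeR, DESeq2 or limma on FPKM. At an unadjusted p under 0.05, edgeR gave 2 of the 9, Btg2 and Ier5. Of all genes 0% were called in high glucose, where 868 had an unadjusted p under 0.05. Btg2 was higher in all 3 TMAO libraries than in all 3 vehicle libraries, with a log2 difference of 0.20 ± 0.06 (adjusted p = 0.91). Ier5 differed by -0.24 ± 0.08 (adjusted p = 0.91), and its groups overlapped. Ier3 did not overlap either, with a difference of 0.20 ± 0.13 (adjusted p = 0.927), so that 2 of the 9 genes were without overlap, against 11.1% of all genes. For the other genes the differences were -0.15 for Ier5l, -0.06 for Zfp36, -0.04 for Zfp36l2, -0.0028 for Ier2, -0.00093 for Btg1 and 0.14 for Zfp36l1. The 95% confidence intervals bounded them to between -0.14 and 0.13 for Ier2 and between -0.09 and 0.09 for Btg1.

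In low glucose, 0.00616% of all genes were called for TMAO, that is 1 gene, the immediate early transcription factor Egr1, with a log2 fold change of 0.52 ± 0.08 (adjusted p = 0.00207). That call was lost with limma on log2(FPKM + 1), and 0 genes were called without TMAO in low glucose replicate 2. None of the 9 genes was called by edgeR, DESeq2 or limma. In edgeR 0 of them had an unadjusted p under 0.05, against 357 of all 16222 tested genes. The groups of 1 gene, Zfp36, did not overlap, against 6.36% of all genes. Its 3 TMAO libraries were at 110 to 117 normalised counts and its 3 vehicle libraries at 92.4 to 106, a log2 difference of 0.18 ± 0.13. The difference with the smallest p was that of Ier5l, at -0.31 ± 0.16 (95% confidence interval -0.63 to 0.01), with overlapping groups. Same-numbered libraries deviated together in low glucose (r from 0.14 to 0.40 in 3 pairs), so they were also compared as pairs, a choice made after seeing the data. Within pairs, Ier5 and Ier5l were lower with TMAO and Btg1, Btg2 and Zfp36 higher in 3 of 3 pairs, and such a single sign was found for 23.1% of all genes. With the replicate number as a block in the 6 low-glucose libraries, edgeR called 27 genes and none of the 9. The same 6 libraries without the block gave 3 genes, and all 12 libraries with the block gave 1. Each TMAO comparison shares libraries with both glucose comparisons, so its values are not independent of theirs.

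The interaction asks whether the glucose response differed between TMAO and vehicle. Of all genes 0% were called, and 545 had an unadjusted p under 0.05. None of the 9 genes was called by edgeR, DESeq2 or limma, and in edgeR 0 of them had an unadjusted p under 0.05. The estimates, as the glucose log2 fold change with TMAO minus that with vehicle, ran from -0.29 for Zfp36l1 to 0.16 for Ier5l. For Btg2 the difference was 0.10 (95% confidence interval -0.08 to 0.28) and for Zfp36 it was -0.24 (-0.59 to 0.11). For Ier3 it was 0.15 (-0.28 to 0.58), for Ier2 -0.08 (-0.28 to 0.12), for Ier5 -0.13 (-0.36 to 0.10) and for Btg1 -0.04 (-0.17 to 0.10). Differences of that size in either direction were thus not resolved with 3 libraries per condition. That Ier5 was called with TMAO and not with vehicle does not show that its responses differed.

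Ordered by mean level, Ier2 and Btg1 had both low-glucose conditions below both high-glucose conditions, and vehicle and TMAO overlapped at each glucose level. Ier3 and Btg2 had the same step, with TMAO in high glucose the highest and without overlap with vehicle in high glucose. Zfp36 was lowest with vehicle in low glucose, followed without overlap by TMAO in low glucose and then by both high-glucose conditions, which overlapped with each other. In Ier5, Ier5l, Zfp36l1 and Zfp36l2 all neighbours in the order overlapped.

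The genes most like each of the 5 that rose were sought by Pearson correlation of log2 scaled counts (CPM) over the 12 libraries, among 12301 genes with a mean of at least 50 counts. The libraries fall into a low- and a high-glucose set, so any gene with a clear glucose step scores high, and the values are a description. Btg2 was most like the immediate early transcription factor genes Fos (r = 0.989) and Nr4a2 (0.984) and the beta-cell factor gene Neurod1 (0.983). Zfp36 was most like Ovol2 (0.979), Egr1 (0.978) and Fos (0.971). Ier2 was most like Zfand2a (0.986), Trib1 (0.986) and Maff (0.984). Ier3 was most like Gm16091 (0.978), Krt25 (0.971) and Ppp1r15a (0.970), and Btg1 most like Zbtb10 (0.962), Fam76a (0.959) and Rel (0.957). The closest genes to the other members were at lower values: Dnaaf5 at 0.929 for Zfp36l2, Prmt2 at 0.914 for Ier5l, Fbxl18 at 0.912 for Ier5 and Lrrc75a at 0.883 for Zfp36l1.

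Genes linked to the BTG and ZFP36 proteins were then counted. In the wider BTG/TOB family 1 of 3 tested genes was called with vehicle and 2 of 3 with TMAO, against 3.30% and 3.64% of all tested genes. Among them Tob1, which like the Btg genes encodes a deadenylase-binding antiproliferative protein, rose with vehicle, from 838 ± 21.4 to 1284 ± 69.7 normalised counts (SD, n = 3). The log2 increase was 0.61 ± 0.06 (adjusted p = 6.22e-09), and 0.69 ± 0.06 (adjusted p = 4.90e-10) with TMAO. Btg3 was called with TMAO, at 0.18 ± 0.05 (adjusted p = 0.0324), and not with vehicle, at 0.11 ± 0.05 (adjusted p = 0.317). DESeq2 called the same numbers of this list, and limma on log2(FPKM + 1) called 1 in each comparison. Tob2 was not called in either, and Btg4 was below the filter. The median of the list was 0.11 with vehicle and 0.18 with TMAO, against 0.0021 and 0.0012 for all tested genes.

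Genes of the decay machinery, of other AU-rich element binding proteins and of partners were called about as rarely as all tested genes. The latter share was 3.30% with vehicle and 3.64% with TMAO, so these counts show nothing particular to these lists. The CCR4-NOT complex and the wider deadenylation and decay machinery gave 26 tested genes. With vehicle 0 were called by edgeR, DESeq2 or limma on log2(FPKM + 1). In edgeR 4 had an unadjusted p under 0.05 with vehicle and 2 with TMAO. Of all 16222 tested genes, 2112 (vehicle) and 2385 (TMAO) had one. With TMAO 1 was called, Cnot4, which encodes a ubiquitin ligase. Cnot4 fell by 0.36 on the log2 scale (SE 0.07, adjusted p = 0.00092). With vehicle its log2 fold change was -0.18 (adjusted p = 0.178). Of 12 other AU-rich element binding proteins, 0 were called in either glucose comparison by any of the 3 tools, with 0 and 1 at an unadjusted p under 0.05 in edgeR. Of 16 tested kinases, phosphatases and partners of the proteins, 0 were called likewise. At an unadjusted p under 0.05 there were 1 and 4, against those 2112 and 2385 of all 16222 tested genes.

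The mRNAs known to be bound by ZFP36 proteins moved in both directions. Of 25 listed, 15 could be tested, and 5 rose and 2 fell in each glucose comparison by edgeR. Like the other lists, this one was chosen with earlier results of these data known, so its counts are a description. DESeq2 called 7 with vehicle and 8 with TMAO, and limma on log2(FPKM + 1) called 7 and 6. Of all tested genes, 3.30% were called with vehicle (1.99% higher) and 3.64% with TMAO (2.0% higher). The list's median was 0.18 with vehicle and 0.08 with TMAO, against 0.0021 and 0.0012 for all tested genes. The 3 with the smallest p with vehicle were Egr1, at 2.59 ± 0.07 (adjusted p = 1.06e-22), Dusp1, a phosphatase of MAP kinases, at 1.85 ± 0.06 (adjusted p = 2.75e-20), and Junb, a subunit of AP-1, at 1.20 ± 0.06 (adjusted p = 4.37e-16). With TMAO these were 2.09, 1.81 and 1.07. The other increases, named after their values were seen, were those of Fos and of the kinase gene Plk3, and the decreases were those of Nfkbia, which encodes an inhibitor of NF-κB, at -0.38 ± 0.07 (adjusted p = 0.000777) and Notch1 at -0.29 ± 0.05 (adjusted p = 0.00087) with vehicle. Egr1, Fos, Dusp1 and Junb are themselves immediate early genes. In the beta-cell marker list, 3 of 14 rose with vehicle: Neurod1 at 0.58 ± 0.04 (adjusted p = 4.62e-11), Nkx2-2 at 0.27 ± 0.04 (adjusted p = 0.000177) and Mafa at 0.66 ± 0.11 (adjusted p = 0.0126). With TMAO 2 rose, Neurod1 and Nkx2-2, and Mafa was at 0.43 (adjusted p = 0.0917). These are edgeR's counts. Of the beta-cell markers DESeq2 called 4 with vehicle and 3 with TMAO, and limma on log2(FPKM + 1) called 3 and 2. The medians of this list were 0.08 and 0.07, and its counts stand against the same 1.99% and 2.0% of all genes called higher. For TMAO against vehicle, edgeR called 0 genes of these lists in high glucose and 1, Egr1, in low glucose. DESeq2 called the same numbers, and limma on log2(FPKM + 1) called 0 in both.

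**Figure D5:**
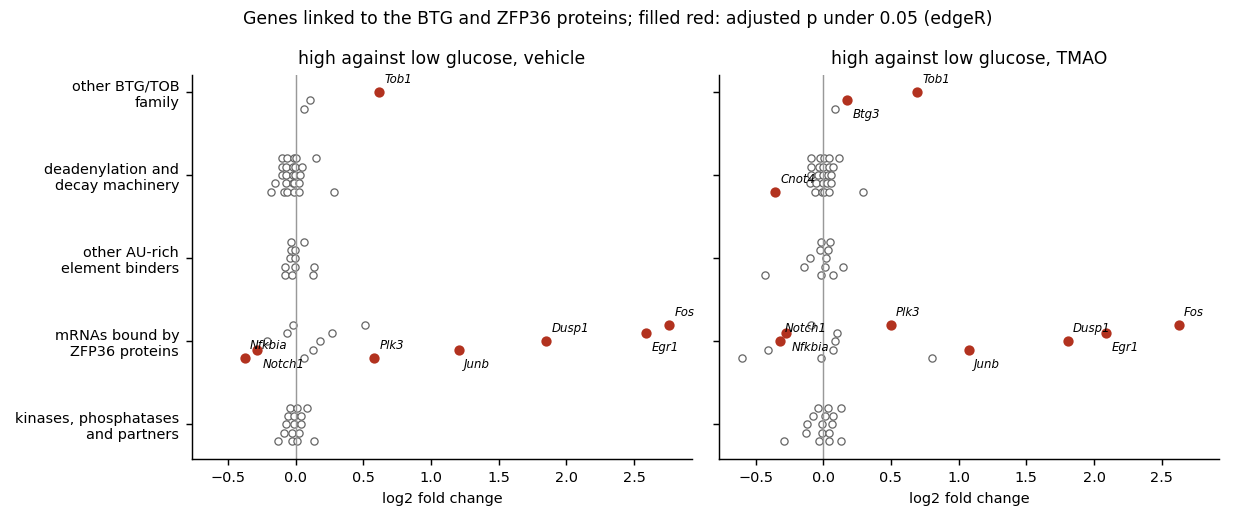
Log2 fold change of high against low glucose for the genes of 5 lists linked to the BTG and ZFP36 proteins, with vehicle on the left and TMAO on the right; each point is 1 tested gene, filled red at an adjusted p under 0.05. The mRNAs bound by ZFP36 proteins hold 5 red points above 0 and 2 below in each panel, while the decay machinery, other AU-rich element binders and partners hold 0 on the left and 1 on the right.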

How the data were processed

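RNA-seq of 12 MIN6 libraries (4 conditions, 3 each) was analysed from the deposited tables. Per the methods and the submitters' processing notes, the authors enriched poly(A) RNA, sequenced paired ends, aligned reads to mm10 with HISAT2 2.0.5 and counted them per gene with featureCounts 1.5.0-p3; DESeq2 1.16.1 is also named. The authors deposited raw counts per gene and FPKM; the strand setting is not given in the sources used here. The 9 genes had the same coordinates in the table as in GENCODE M21 (GRCm38).

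Counts were tested with edgeR 4.0.16 (R 4.3.3): filterByExpr, TMM normalisation, robust quasi-likelihood fit of 4 condition means on all 12 libraries and Benjamini-Hochberg adjustment over 16222 genes, with calls at an adjusted p under 0.05. SE was derived from the F statistic. FPKM served for levels between genes. Alternatives were DESeq2 1.42.0, limma 3.58.1 on log2 FPKM, other filters and scaling, a replicate block and leaving out each library. Scripts were tested on simulated data. The replicate numbers, given by the labels, were checked for pairing by correlating deviations from the condition means. In low glucose all 3 same-numbered vehicle and TMAO pairs were over 0.1 (r from 0.14 to 0.40), and in each other comparison at most 1 of 3 was.

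The genes and the linked lists were chosen with earlier results of these data known. The text names all 9 genes, up to 3 called genes per list by smallest p with vehicle, and the 3 genes most correlated with each member, of which those of 4 members are given by the closest. Exceptions are stated. RefSeq promoters (GRCm38.p6) and GENCODE transcripts gave the sequences. No protein sequences were used here.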

Additional observations from a re-analysis of the deposited data

How the results depend on the processing

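The increases of Ier2, Ier3, Btg2 and Zfp36 in high glucose kept their direction and their call in both glucose comparisons under all 8 alternatives that use all libraries of the comparison and without each library in turn. The fits had 3 libraries per condition, and the counts of Zfp36l1 (3 to 16) bound its folds only loosely. With vehicle, 5 of the 9 genes were called under each of those 8 alternatives, and 4 to 5 without 1 library. With TMAO, 6 were called in the reported fit, 5 with only the libraries compared, 5 with DESeq2, 4 with limma on log2(FPKM + 1) or on log2(FPKM + 0.1), and 4 to 5 without 1 library, the changes being those of Btg1 and Ier5. By the correlation of deviations, the replicate numbers paired the libraries only for TMAO against vehicle in low glucose, where the block fitted on the 6 low-glucose libraries, an alternative chosen after seeing the data, called 27 genes and 0 of the 9. In the other 3 comparisons 0, 0 and 1 of 3 same-numbered pairs were over 0.1, although 10 of the 12 libraries correlated best with their own number over all conditions. With the block in all 12 libraries, 5 and 6 of the 9 genes were called for glucose, with 717 and 783 genes in all, and it changed no other call of the 9.

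Over all tested genes, limma on log2(FPKM + 1) and log2(FPKM + 0.1) called 330 and 332 genes for glucose with vehicle (536 reported) and 326 and 311 for glucose with TMAO (591 reported). For TMAO in high glucose (0 reported), 13 genes were called without the filter on low counts, 3 with only the libraries compared, 1 with DESeq2, and 2 with limma at either pseudocount. For TMAO in low glucose (1 reported), the counts were 7 without the filter, 3 with only the libraries compared and 2 with limma on log2(FPKM + 0.1). For the interaction (0 reported), they were 6 without the filter and 3 and 5 with limma. The causes were not tested. Leaving out 1 library gave 328 to 475 genes for glucose with vehicle (328 without vehicle in high glucose replicate 3, 341 without vehicle in low glucose replicate 2), 344 to 657 for glucose with TMAO (344 without TMAO in high glucose replicate 3, 365 without TMAO in low glucose replicate 1), 0 to 1 for TMAO in high glucose (1 without vehicle replicate 1), 0 to 1 for TMAO in low glucose (0 without TMAO replicate 2) and 0 to 2 for the interaction (2 without TMAO in high glucose replicate 1).

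Reversals of sign occurred only for differences that were not called. The log2 difference of Btg1 for TMAO in high glucose was 0.0011 without the filter. Without 1 library, the log2 values for glucose with vehicle ran from -0.62 to 0.013 for Zfp36l1 and from -0.073 to 0.044 for Zfp36l2, and those for glucose with TMAO from -0.14 to 0.052 for Ier5l and from -0.083 to 0.00072 for Zfp36l2. For TMAO in high glucose they ran from -0.061 to 0.046 for Ier2, from -0.025 to 0.028 for Btg1, from -0.18 to 0.33 for Zfp36l1 and from -0.078 to 0.023 for Zfp36l2. For TMAO in low glucose they ran from -0.12 to 0.27 for Ier3 and from -0.054 to 0.044 for Zfp36l2. For the interaction they ran from -0.070 to 0.31 for Ier3, from -0.60 to 0.10 for Zfp36l1 and from -0.083 to 0.034 for Zfp36l2.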
